A study of Homo sapiens with 4 samples.

Results

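Adhesion to the extracellular matrix was followed through 37 genes, chosen by symbol, that code for integrin subunits, laminin chains, collagens, fibronectin, other matrix receptors, adhesion complex proteins and secreted matricellular proteins. All 37 were found among the 23196 gene symbols of the deposited expression table, and none had more than 1 entry. Of these, 31 had an FPKM (fragment count scaled to transcript length and library size) of at least 1 in at least 1 library and were compared between libraries, among 11729 genes of the table that met the same limit.

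Poly(A) RNA was sequenced from MKN28, a human gastric adenocarcinoma cell line, as 1 library for each of 4 stable lines. All lines carried a viral tet-on system, from which doxycycline induces expression. In the control line (Luc) it held luciferase. In the other lines it was a retroviral vector with HA-tagged KIAA1324. These were the wild type (WT), a mutant with 3 putative N-glycosylation sites exchanged for glutamine (3NQ) and a mutant without the transmembrane domain (ΔTM). KIAA1324 is a transmembrane protein studied as a tumor suppressor, and its RNA checked the labels. Luc had an FPKM of 2.86, WT of 11185, 3NQ of 8197 and the library with the ΔTM label of 0, which is below the control although the label names a KIAA1324 construct. For this reason it is named the ΔTM-labelled library below, and every difference given for it rests on its label. The use of doxycycline before RNA extraction is not given in the sources used here, nor is it given whether a line was a clone or a pool of infected cells. The lines were made by infection and drug selection, so that the construct and the history of a line cannot be told apart.

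Each group was a single library, so that no difference could be set against replicates and no test was made. Genes are called higher or lower here when the log2 ratio of FPKM + 1 is at least 1.5-fold, and the shares of all 11729 genes called by the same rule are given for comparison. A ratio on this scale understates the difference of genes at low FPKM. The summed FPKM was between 560540 and 585104 per library, and between 11297 and 11406 genes had an FPKM of at least 1.

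Integrins are receptors made of an α and a β subunit, and the pair decides which matrix protein is bound. The β1 subunit joins many α subunits to form receptors for collagens, laminins and fibronectin, while α6 with β4 binds laminin and anchors epithelial cells through hemidesmosomes. Laminins are secreted trimers of an α, a β and a γ chain and form the core of the basement membrane on which the gastric epithelium rests. Talin, vinculin, paxillin, zyxin and focal adhesion kinase link the cytoplasmic tails of integrins to actin and to signaling.

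Compared to Luc, 5 of the 31 adhesion genes were called in WT, and they lie at the center of the results below. LAMA2, LAMB3, ITGA2 and CD44 were higher (12.9%, beside 3.35% of all genes), and LAMB1 was lower (3.23%, beside 3.3% of all genes). Their promoters are shown so that the sequence next to each start site can be read beside the expression values. They were taken from RefSeq on GRCh38.p14, a later build than the GRCh37 of the expression table, as the 250 bases before the annotated start, 5′ to 3′ on the strand of the gene. Capitals mark matches to 1 of 3 motifs that were chosen after the values were known. These were AP-1 (TGANTCA), TEAD (GGAATG) and NF-kappa B, each searched on both strands. LAMA2 spans chr6:128882888-128883137 on the plus strand, LAMB3 chr1:209652426-209652675 on the minus strand, ITGA2 chr5:52989102-52989351 on the plus strand, CD44 chr11:35138921-35139170 on the plus strand and LAMB1 chr7:108003162-108003411 on the minus strand.
LAMA2: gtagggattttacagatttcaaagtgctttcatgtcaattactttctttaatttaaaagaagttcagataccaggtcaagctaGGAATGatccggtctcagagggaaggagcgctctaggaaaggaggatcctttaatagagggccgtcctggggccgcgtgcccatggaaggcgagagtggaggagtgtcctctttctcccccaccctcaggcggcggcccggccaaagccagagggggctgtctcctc
LAMB3: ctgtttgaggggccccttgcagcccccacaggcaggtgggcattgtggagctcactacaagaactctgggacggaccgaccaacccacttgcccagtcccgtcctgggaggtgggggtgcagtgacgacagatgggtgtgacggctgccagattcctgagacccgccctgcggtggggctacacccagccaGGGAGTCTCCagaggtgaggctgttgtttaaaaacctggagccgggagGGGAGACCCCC
ITGA2: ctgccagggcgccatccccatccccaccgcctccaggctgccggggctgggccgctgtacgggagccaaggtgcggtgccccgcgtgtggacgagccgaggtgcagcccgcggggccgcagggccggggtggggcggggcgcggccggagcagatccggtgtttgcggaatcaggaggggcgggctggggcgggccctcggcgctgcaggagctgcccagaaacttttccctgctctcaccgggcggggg
CD44: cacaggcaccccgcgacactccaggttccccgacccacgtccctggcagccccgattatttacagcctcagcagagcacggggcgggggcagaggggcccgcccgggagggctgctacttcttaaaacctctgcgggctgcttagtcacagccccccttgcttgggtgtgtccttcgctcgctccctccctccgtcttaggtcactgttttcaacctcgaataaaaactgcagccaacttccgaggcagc
LAMB1: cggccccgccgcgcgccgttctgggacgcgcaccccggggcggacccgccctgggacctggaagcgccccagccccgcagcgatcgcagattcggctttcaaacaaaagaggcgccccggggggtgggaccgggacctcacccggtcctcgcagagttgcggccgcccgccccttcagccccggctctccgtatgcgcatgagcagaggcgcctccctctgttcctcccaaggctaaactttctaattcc

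In the LAMA2 window, the capitals are a TEAD match 167 bases before the start. In the LAMB3 window, they are NF-kappa B matches that begin 59, 11 and 10 bases before the start, the last pair of which overlap. The windows of ITGA2, CD44 and LAMB1 held none of the 3 motifs. Promoters of 31 of the 37 genes were matched in the RefSeq table, CTGF under its present name CCN2, and ITGA3, ITGB3, ITGB4, LAMA1, PTK2 and CYR61 were not. The NF-kappa B motif was found in 8 of these 31 (25.8%), namely CTGF, DAG1, ITGA1, ITGA5, LAMB3, SDC4, VCL and ZYX, and in 5.21% of 35116 promoters of the same length. TEAD matches were found in 6 (19.4%), namely CTGF, ITGA5, ITGB1, LAMA2, THBS1 and VCL, and in 11.9% of all promoters. AP-1 was found in 1 (3.23%), LAMA3, and in 6.57% of all promoters. The adhesion genes entered with 1 promoter each. All promoters means every entry of that length, not reduced to 1 per gene and not matched for gene type or base content. The shares are thus from unlike sets, and their difference was not tested. In CTGF and ITGA5, the TEAD and the NF-kappa B match began at the same base, 95 and 82 bases before the start. Such a match describes letters in the window and is not a measured binding site. Of the 8 genes with an NF-kappa B match, ITGA1 was below the filter and was not compared. Among the rest, LAMB3 alone was called in any comparison, beside 11.9% of all genes called in at least 1.

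The adhesion genes differed far more from each other than between libraries. In Luc, 11 genes had an FPKM of at least 100, and they included β subunits, syndecans, LAMC1, focal adhesion kinase, paxillin and CYR61. SDC4, a transmembrane heparan sulfate proteoglycan of focal adhesions, was the highest, with an FPKM of 775 for Luc, 812 for WT, 817 for 3NQ and 668 for the ΔTM-labelled library. ITGB1, the common β1 subunit, followed with 421, 358, 387 and 413 in the same order. ITGB5, which pairs with αV, had an FPKM of 248, 242, 208 and 209. These 3 genes differed between libraries by no more than 1.22 times in FPKM.

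CYR61, a secreted matricellular ligand of integrins, had an FPKM of 203, 203, 256 and 204, so that 3NQ stood above the other libraries. PXN, the scaffold paxillin, had 205, 235, 221 and 203 and was highest in WT. PTK2, focal adhesion kinase, had 189, 180, 166 and 174. In SDC1, another syndecan, the FPKM was 175, 146, 150 and 158. ITGB4, the partner of α6, had 145, 149, 140 and 129. None of these 5 genes was called in any comparison.

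At the other end, 6 genes stayed below an FPKM of 1 in every library and were not compared. They were ITGA1 (highest FPKM 0.575), a collagen-binding α subunit, ITGB3 (0.0554) and ITGB6 (0.444), which pair with αV, LAMA4 (0.110), a laminin chain best known from vessels, and COL4A1 (0.123) and COL4A2 (0.0932), the main collagens of basement membranes. In the deposited gene spans, ITGA1 and ITGB3 each share bases with an expressed gene on the same strand, PELO and EFCAB13, respectively. In the GENCODE annotation on GRCh37, ITGB3 ends at 45391109, before the deposited start of EFCAB13 at 45400656. In another 3 genes, LAMA3, CD44 and CTGF, the FPKM was at least 1 in a library but under 5 in all 4. The plot of levels shows both ends of this range.

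**Figure D1:**
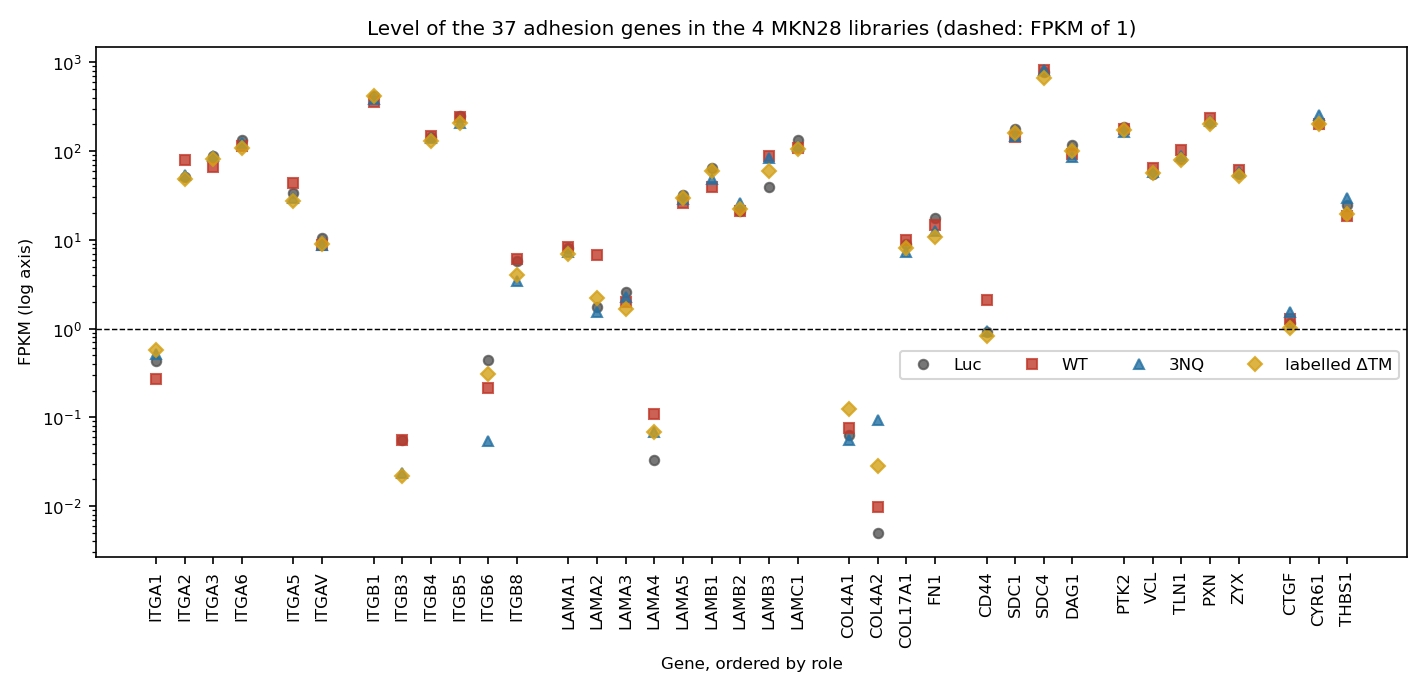
FPKM (vertical, log axis) of the 37 adhesion genes ordered by role (horizontal), with 1 point for each of the 4 libraries and a dashed line at an FPKM of 1. The points of most genes lie on top of each other, SDC4 and ITGB1 lead, LAMA2 and CD44 have a WT point apart from the others, and 6 genes lie below the line in every library.

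Compared to Luc, the WT library had 4 of the 31 adhesion genes higher (12.9%, beside 3.35% of all genes) and 1 lower (3.23%, beside 3.3% of all genes). These genes were chosen with earlier results of these data known, and CD44 passed the filter through WT alone. The part of either in these shares was not tested. The median log2 ratio was 0.0036 for the adhesion genes and −0.0049 for all genes, and 16 of the 31 lay above 0. The differences thus lay in single genes, with the median of the group near 0. In bulk RNA, more cells with a transcript and more of it per cell cannot be told apart.

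LAMA2 codes for the α2 chain of merosin, the laminin of muscle and nerve (ENSG00000196569, chr6:129204342-129837714 on the plus strand of GRCh37). Its FPKM was 1.75 for Luc, 6.70 for WT, 1.52 for 3NQ and 2.20 for the ΔTM-labelled library. WT stood apart from 3 libraries that lay close together at a low level. The log2 ratio to Luc was 1.48 for WT, while it was −0.13 for 3NQ and 0.22 for the ΔTM-labelled library. This was the largest ratio among the adhesion genes, and with a pseudocount of 5 it was 0.79, still past 1.5-fold.

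LAMB3 codes for the β3 chain of laminin-332, the anchoring laminin of epithelia (ENSG00000196878, chr1:209788215-209825811 on the minus strand). The FPKM was 39.3 for Luc, 87.7 for WT, 83.6 for 3NQ and 60.4 for the ΔTM-labelled library. Here Luc was the library that stood apart, and WT and 3NQ were alike. The log2 ratio to Luc was 1.14 for WT, while it was 1.07 for 3NQ and 0.61 for the ΔTM-labelled library. LAMB3 was the only 1 of the 31 genes called in the same direction in all 3 libraries. These 3 ratios share the Luc library, and against the mean of 3NQ and the ΔTM-labelled library the ratio of WT was 0.28 and was not called.

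LAMB1 codes for the β1 laminin chain, found in most basement membranes (ENSG00000091136, chr7:107564244-107643700 on the minus strand). Its FPKM was 63.7 for Luc, 39.7 for WT, 48.3 for 3NQ and 59.7 for the ΔTM-labelled library. WT was lowest and 3NQ lay between WT and the remaining libraries. The log2 ratio to Luc was −0.67 for WT, while it was −0.39 for 3NQ and −0.09 for the ΔTM-labelled library. Against the mean of 3NQ and the ΔTM-labelled library, WT was at −0.44 and was not called. LAMB1 shares 7932 bases with DLD on the opposite strand, whose FPKM was 58.2 in Luc and 58.2 in WT, and whether strand was used in the counting is not given in the sources used here.

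ITGA2, the α2 subunit of the collagen receptor α2β1 (ENSG00000164171, chr5:52285156-52390609 on the plus strand), had an FPKM of 50.8 for Luc, 79.4 for WT, 53.1 for 3NQ and 48.3 for the ΔTM-labelled library. WT alone stood apart, as it did for LAMA2. The log2 ratio to Luc was 0.63 for WT, while it was 0.06 for 3NQ and −0.07 for the ΔTM-labelled library. It stayed past 1.5-fold under all alternatives run at that threshold, between 0.60 and 0.65.

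CD44, a receptor for hyaluronan (ENSG00000026508, chr11:35160417-35253949 on the plus strand), had an FPKM of 0.925 for Luc, 2.08 for WT, 0.949 for 3NQ and 0.816 for the ΔTM-labelled library. It is among the lowest of the genes compared and passed the filter through WT alone. The log2 ratio to Luc was 0.68 in WT, and with a pseudocount of 5 it was 0.26 and was not called. The depth behind these low values is unknown.

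**Figure D2:**
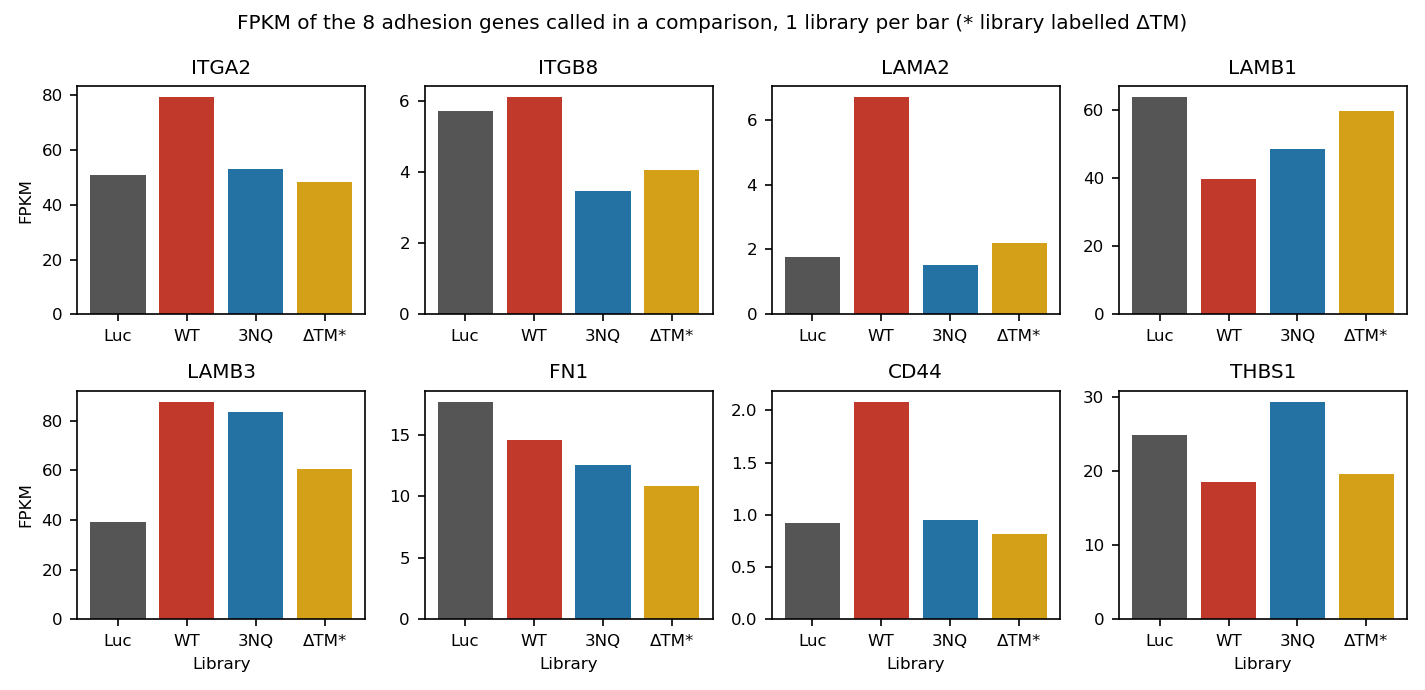
FPKM (vertical, linear axes from 0) of the 8 adhesion genes called in at least 1 of 4 comparisons, with 1 bar for each library and no error bars because each group is 1 library. WT stands above the other bars for ITGA2, LAMA2 and CD44, Luc below them for LAMB3, and FN1 is lowest in the ΔTM-labelled library.

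In 3NQ, 1 gene was higher than Luc (3.23%, beside 1.72% of all genes) and 1 was lower (3.23%, beside 2.54% of all genes). The higher gene was LAMB3, described above. The lower gene was ITGB8 (ENSG00000105855, chr7:20370325-20450419 on the plus strand), whose product pairs with αV to bind latent TGF-β. The FPKM of ITGB8 was 5.71 for Luc, 6.12 for WT, 3.47 for 3NQ and 4.06 for the ΔTM-labelled library, with 3NQ and the ΔTM-labelled library below Luc and WT. The log2 ratio of 3NQ to Luc was −0.59, at the edge of 1.5-fold. It was not called with a pseudocount of 5 (−0.34) or after rescaling by the median of ratios (−0.55) or by upper quartile (−0.58). The median log2 ratio of the adhesion genes in 3NQ was −0.12, beside −0.04 for all genes, and 13 of 31 lay above 0.

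In the ΔTM-labelled library, 1 gene was higher than Luc (3.23%, beside 1.53% of all genes) and 1 was lower (3.23%, beside 1.57% of all genes). LAMB3 was again the higher gene, and with a pseudocount of 5 its ratio of 0.56 was not called. FN1, fibronectin, the ligand of integrin α5β1 (ENSG00000115414, chr2:216225163-216300895 on the minus strand), was the lower gene. Its FPKM was 17.7 for Luc, 14.6 for WT, 12.6 for 3NQ and 10.9 for the ΔTM-labelled library, with Luc above the other 3 libraries. The log2 ratio was −0.26 for WT, while it was −0.46 for 3NQ and −0.66 for the ΔTM-labelled library, and with a pseudocount of 5 the last was −0.52 and was not called.

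In the ΔTM-labelled library, most of the adhesion genes lay below Luc. The median log2 ratio was −0.11, beside −0.06 for all genes and −0.12 for the adhesion genes in 3NQ. Of the 31 genes, 5 lay above Luc (16.1%), compared with 37% of all genes. After rescaling by the median of ratios, 8 lay above Luc (25.8%, beside 50.4% of all genes), and after rescaling by the upper quartile 7 did (22.6%, beside 43.7%). This library held the highest level of none of the 31 genes, whereas it held the highest level of 16.8% of all genes. It held the lowest level of 14 (45.2%), compared with 31.8% of all genes. WT held the highest level of 13 (41.9%), Luc of 12 (38.7%) and 3NQ of 6 (19.4%), beside 33.6%, 30.6% and 19% of all genes.

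The comparison of WT with 3NQ sets the wild type beside the N-glycosylation mutant. Both lines carried KIAA1324 RNA at a high level, with an FPKM of 11185 for WT and 8197 for 3NQ. The paper reports that the mutant protein had a shorter half-life than the wild type and was reduced at the cell surface. Loss of the sites, amount of protein and history of the line cannot be told apart in these ratios, and the part of each was not tested. Compared to 3NQ, WT had 3 adhesion genes higher (9.68%, beside 2.87% of all genes) and 1 lower (3.23%, beside 1.53% of all genes). LAMA2 (log2 ratio 1.61), ITGB8 (0.67) and CD44 (0.66) were higher. CD44 passed the filter through WT alone, so that its place in this share rests on the value compared. With a pseudocount of 5, LAMA2 was still called (0.84), and ITGB8 (0.39) and CD44 (0.25) were not. ITGA2 lay just under the threshold at 0.57. LAMB3 had a ratio of 0.07 and thus a like level in both lines.

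THBS1, thrombospondin-1, a matricellular protein that binds integrins and CD36 (ENSG00000137801, chr15:39873280-39891667 on the plus strand), was the lower gene. The FPKM was 24.9 for Luc, 18.5 for WT, 29.4 for 3NQ and 19.6 for the ΔTM-labelled library, and 3NQ was highest. The log2 ratio of WT to 3NQ was −0.64, and with a pseudocount of 5 it was −0.55 and was not called. The other matricellular genes, CYR61 (−0.33) and CTGF (−0.15), were also lower in WT than in 3NQ, without reaching 1.5-fold. CTGF, a ligand of integrins and heparan sulfate, was near the limit of the filter, with an FPKM between 1.01 and 1.52.

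**Figure D3:**
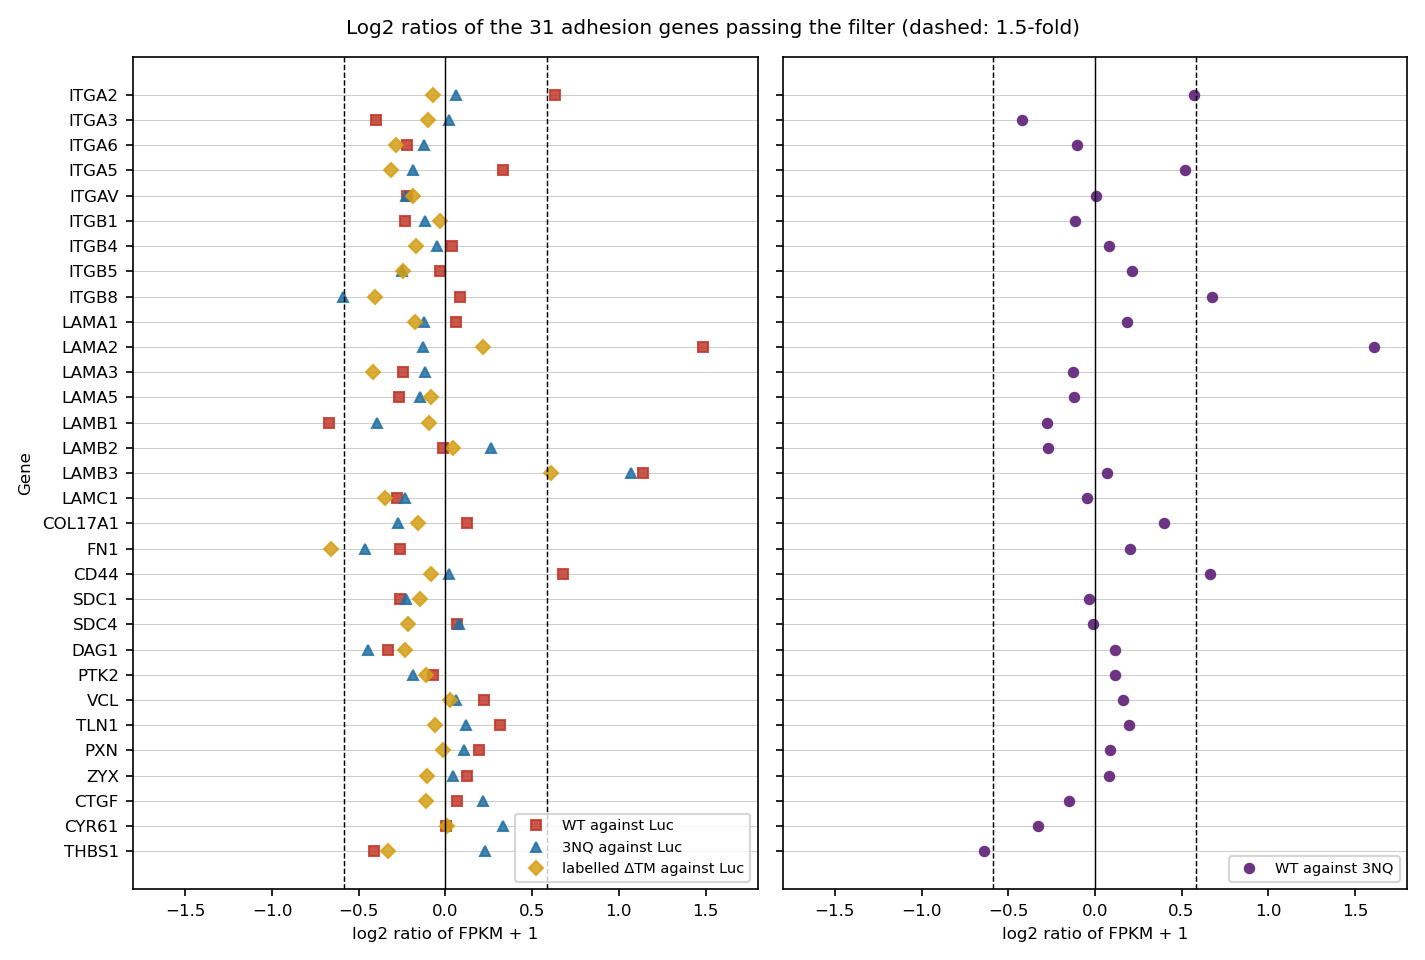
Log2 ratio of FPKM + 1 (horizontal) of the 31 adhesion genes that passed the filter (vertical, ordered by role), with the 3 comparisons to Luc on the left and WT against 3NQ on the right, and dashed lines at 1.5-fold. Most points lie between the dashed lines, LAMB3 lies outside in all 3 comparisons to Luc, and LAMA2 is the farthest point on both sides.

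Among the α subunits, 4 of the 5 that passed the filter had no call. ITGA3, which binds laminin-332 with β1, had 65.9 FPKM at its lowest, in WT, and 88.5 at its highest, in 3NQ, with −0.40 as the log2 ratio of WT to Luc. ITGA6, the laminin receptor subunit of hemidesmosomes, ranged from 109 to 133 with its highest level in Luc. ITGA5, the fibronectin receptor subunit, had an FPKM of 43.2 in WT and 27.2 in the ΔTM-labelled library, and WT was 0.33 above Luc and 0.52 above 3NQ on the log2 scale. ITGAV, the common partner of β3, β5, β6 and β8, lay between 8.77 and 10.4. Thus, ITGA2 and ITGA5 were highest in WT and ITGA3 was lowest there, while ITGA6 and ITGAV were highest in Luc.

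The shares of each subunit within its family do not change when a whole library is rescaled. ITGA2 made 16.1% of the summed FPKM of the 6 α subunits for Luc, 25.5% for WT, 17.5% for 3NQ and 17.5% for the ΔTM-labelled library. The share of ITGA6, the largest, was 42.1%, 36.5%, 40.3% and 39.6% in the same order. The ratio of ITGA2 to ITGA3 was 0.583 in Luc and 1.21 in WT, against 0.600 in 3NQ and 0.593 in the ΔTM-labelled library. WT was thus the library in which ITGA2 exceeded ITGA3 at the RNA level, while ITGA6 stayed above ITGA2 in all 4 libraries. The β subunits kept their order in all 4 libraries, with ITGB1 at 47.4% to 54.7%, ITGB5 at 27.7% to 32%, ITGB4 at 17% to 19.7% and ITGB8 under 1%.

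LAMB1 and LAMB3 differed in share between libraries by more than any integrin subunit. LAMB1 made 51.3% of the summed FPKM of the 3 β chains for Luc, 26.7% for WT, 30.7% for 3NQ and 42% for the ΔTM-labelled library. LAMB3 made 31.6%, 59.1%, 53% and 42.5% in the same order. The leading β chain was thus LAMB1 in Luc and LAMB3 in WT and 3NQ, and the ΔTM-labelled library held nearly equal levels. The FPKM ratio of LAMB3 to LAMB1 was 0.616 for Luc, 2.21 for WT, 1.73 for 3NQ and 1.01 for the ΔTM-labelled library. LAMB2, a β chain of several basement membranes, made 14.2% to 17.2%, and its FPKM lay between 21.1 and 25.7.

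Of the laminin α chains, LAMA5, the main α chain of adult epithelial basement membranes, led in every library, with 72% of the summed FPKM for Luc, 60.3% for WT, 72% for 3NQ and 73.3% for the ΔTM-labelled library. LAMA2 made 3.99%, 15.5%, 3.83% and 5.4%. LAMA1, the α chain of embryonic basement membranes, had an FPKM between 6.97 and 8.39. LAMA3, which joins LAMB3 in laminin-332, lay between 1.66 and 2.55 and was highest in Luc. LAMC1, the common γ1 chain, lay between 105 and 133 and was also highest in Luc.

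**Figure D4:**
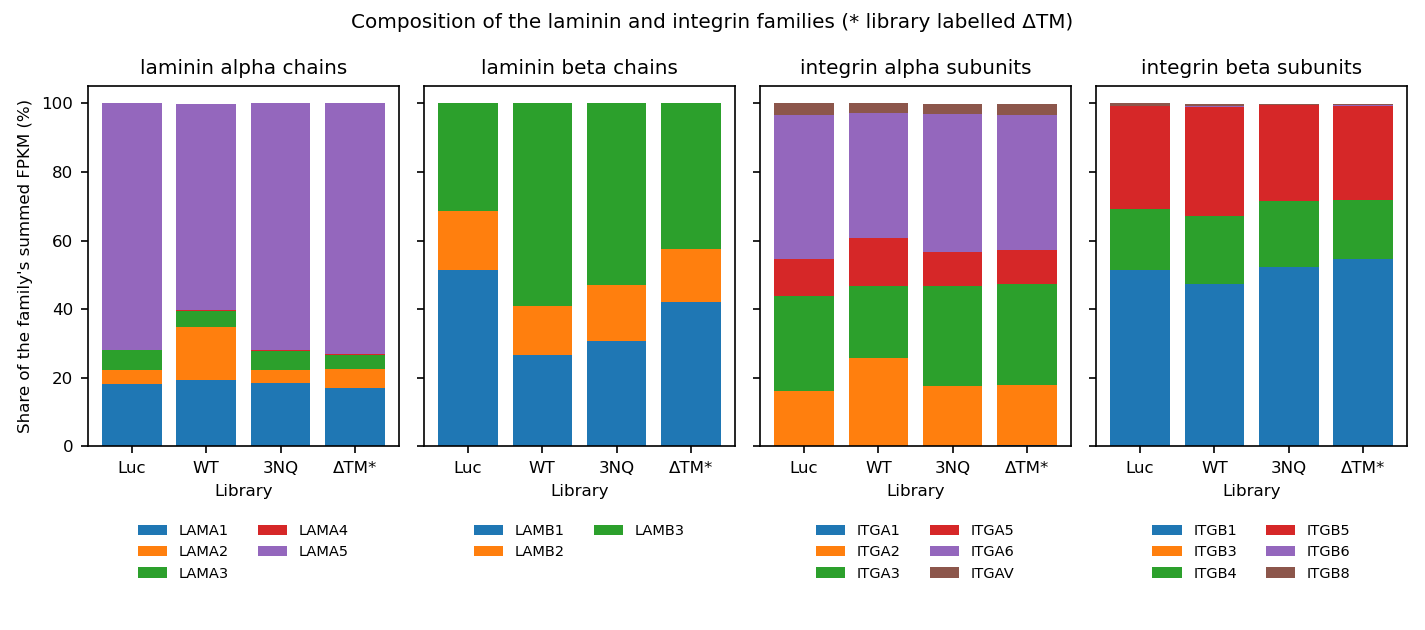
Share (%) of each gene in the summed FPKM of its family (vertical, stacked bars from 0) in each of the 4 libraries (horizontal), for laminin α chains, laminin β chains, integrin α subunits and integrin β subunits. LAMB3 exceeds LAMB1 in WT and 3NQ, LAMA2 and ITGA2 widen in WT, and the integrin β subunits stay in the same order.

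The remaining matrix proteins and receptors were not called in any comparison. COL17A1, a transmembrane collagen of hemidesmosomes, had an FPKM between 7.32 in 3NQ and 9.96 in WT. DAG1, dystroglycan, which binds laminin, was highest in Luc at 118 and lowest in 3NQ at 85.9, a log2 ratio of −0.45.

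The 5 adhesion complex genes differed little between libraries, and none was called. Talin (TLN1), which activates integrins, had the largest log2 ratio of WT to Luc, at 0.31, followed by vinculin (VCL) at 0.22, paxillin (PXN) at 0.19 and zyxin (ZYX) at 0.13, while PTK2 was at −0.07. All 5 lay above 0 in WT against 3NQ, between 0.08 and 0.20. In the ΔTM-labelled library they lay between −0.11 and 0.03 of Luc, and PXN passed from −0.02 to 0.05 after rescaling by the median of ratios. In the deposited gene spans, TLN1 shares 61 bases with CREB3 on the opposite strand, whose FPKM was 64.6 in Luc and 108 in WT. In the GENCODE annotation on GRCh37, TLN1 ends at 35732192, before the deposited start of CREB3 at 35732332. ITGB4, LAMA5 and ZYX overlap the expressed genes GALK1, ADRM1 and EPHA1 on the opposite strand, and the part of these overlaps in the values was not tested.

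Over the 4 libraries, the log2 range of a gene had a median of 0.33 in the adhesion genes and 0.31 in all genes. It reached 1.5-fold in 9 of 31 (29%), compared with 14.6% of all genes. Among genes with a mean FPKM of at least 5 the shares were 6 of 26 (23.1%) and 10.8%. Of the 31, 8 (25.8%) were called in at least 1 of the 4 comparisons, beside 11.9% of all genes, and 23 in none. CD44, which passed the filter through WT alone, is counted in the 9 and in the 8. The summed FPKM of the 37 genes was 3349 for Luc, 3312 for WT, 3304 for 3NQ and 3052 for the ΔTM-labelled library, or 0.582%, 0.587%, 0.565% and 0.544% of all FPKM.

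To place these genes in their pathway, 102 other genes were listed, of which 65 passed the filter. In WT, 2 were higher than Luc (3.08%, beside 3.35% of all genes) and 4 lower (6.15%, beside 3.3%). In 3NQ, none was higher (beside 1.72% of all genes) and 4 were lower (6.15%, beside 2.54%). In the ΔTM-labelled library, 1 was higher (1.54%, beside 1.53%) and 1 lower (1.54%, beside 1.57%). Compared to 3NQ, WT had 3 higher (4.62%, beside 2.87%) and 1 lower (1.54%, beside 1.53%). Over the 65 genes, the log2 ratio had a median of −0.08, −0.09 and −0.12 against Luc and −0.02 for WT against 3NQ.

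Of 31 other adhesion complex genes, 29 passed the filter and 6 of these were called in at least 1 comparison, beside 11.9% of all genes. LPP, a zyxin relative at focal adhesions, had an FPKM of 21.8 for Luc, 35.1 for WT, 18.9 for 3NQ and 30.4 for the ΔTM-labelled library, a log2 ratio of 0.66 for WT to Luc that was not called with a pseudocount of 5 (0.58) or against the average of 3NQ and the ΔTM-labelled library (0.49). Its ratio of WT to 3NQ was 0.86. TENC1, tensin-2, was lower in WT than in Luc (−0.82) at an FPKM of at most 1.71, and it was not called with a pseudocount of 5 (−0.28) or against that average (−0.48). The remaining 3 genes were picked after their values were seen. TNS3, tensin-3, was lower than Luc in WT (−0.69) and in 3NQ (−0.64), with an FPKM of 37.2 for Luc, 22.6 for WT, 23.5 for 3NQ and 28.7 for the ΔTM-labelled library. RSU1, a partner of the integrin-linked kinase complex, was higher in WT than in Luc (0.61). TGFB1I1, the paxillin relative Hic-5, was higher in WT than in 3NQ (0.69), at an FPKM of at most 3.33. Unlike LPP and TENC1, these 3 genes were not followed under the alternatives, and how far their calls depend on the settings was not tested.

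TLN2, the second talin, had an FPKM of 35.3 for Luc, 41.8 for WT, 21.5 for 3NQ and 112 for the ΔTM-labelled library. The ΔTM-labelled library stood far above the rest, and its log2 ratio to Luc was 1.64. In 3NQ the ratio was −0.69, and for WT against 3NQ it was 0.93. TLN1 did not share this pattern, with an FPKM between 78.7 and 102.

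Among 8 other matrix receptors and proteoglycans, 6 passed the filter and 2 were called in at least 1 comparison, beside the same 11.9% of all genes. BCAM, a receptor for the laminin α5 chain, had an FPKM of 35.5 for Luc, 15.0 for WT, 21.5 for 3NQ and 29.1 for the ΔTM-labelled library. It was lower than Luc in WT (−1.19) and in 3NQ (−0.70), and its ratio in WT was the lowest of the 65 genes. HMMR, a hyaluronan receptor that also acts at the mitotic spindle, had 31.7, 18.4, 20.2 and 26.2 in the same order. Its log2 ratio to Luc was −0.75 in WT and −0.63 in 3NQ, and the latter was not called with a pseudocount of 5 (−0.54) or after rescaling by the median of ratios (−0.58). Against the average of 3NQ and the ΔTM-labelled library, HMMR in WT was at −0.32 and was not called. Luc was the highest library for both receptors.

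DST, the hemidesmosomal plakin dystonin, was lower than Luc in the ΔTM-labelled library (−0.59), with an FPKM of 31.8 and 20.8. It was not called with a pseudocount of 5 (−0.51) or after rescaling by the median of ratios (−0.52) or by upper quartile (−0.55). The other 4 hemidesmosome and tetraspanin genes were not called.

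YAP and TEAD respond to adhesion and tension and drive CTGF and CYR61 in many cells. Of 12 listed genes of this pathway and its targets, all passed the filter, and none was called against Luc. Of all genes, 3.35% were called higher and 3.3% lower in WT. The shares were 1.72% and 2.54% in 3NQ, and 1.53% and 1.57% in the ΔTM-labelled library. The median log2 ratio to Luc was −0.24 for WT, while it was −0.15 for 3NQ and −0.15 for the ΔTM-labelled library. In WT, 11 of the 12 lay below Luc, as did 9 in 3NQ and 11 in the ΔTM-labelled library, while 49.1%, 43% and 37% of all genes lay above it. These comparisons share the Luc library. CTGF and CYR61 belong to the adhesion genes and are not among these 12. Their log2 ratios to Luc were 0.07 and 0.0036 in WT and 0.22 and 0.33 in 3NQ. In the ΔTM-labelled library they were −0.11 and 0.008. AJUBA, a LIM protein that inhibits the Hippo kinases, was lower in WT than in 3NQ (−0.59), which was not called with a pseudocount of 5 (−0.51).

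The other lists held no call. Of 14 other integrin subunits, ITGAE, the αE subunit, was the only 1 that passed the filter, with an FPKM between 17.1 and 19.1. Of 12 other basement membrane genes 5 passed, of 13 matrix proteases and inhibitors 7 passed, and of 7 paralogs of the matricellular genes none passed.

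The epithelial identity of the line was checked with EPCAM, CDH1, KRT8, KRT18, KRT19 and CLDN4, all of which passed the filter. Their summed FPKM was 13639 for Luc, 7922 for WT, 10299 for 3NQ and 11883 for the ΔTM-labelled library. The lower sum in WT lay in the keratins of simple epithelia, KRT8 (8501 in Luc and 4510 in WT, log2 ratio −0.91) and KRT18 (3684 and 2115, −0.80), which were called lower. EPCAM was at 391 in Luc and 349 in WT, and CDH1, E-cadherin, at 272 and 233, within 1.5-fold. The part of this difference in the adhesion values was not tested. Of the fibroblast markers, COL1A1 passed the filter, with an FPKM between 12.1 and 15.3, and the other 5 stayed at or below 0.264. No endothelial or leukocyte marker passed, their summed FPKM was at most 0.426 and 0.252, and KDR and CD3E were at 0 in all libraries. PECAM1 was looked up and had no entry under that symbol.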

How the data were processed

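Poly(A) RNA of 4 MKN28 lines was sequenced on a HiSeq2500, with 1 library per group. The authors mapped filtered reads to GRCh37 with TopHat and estimated the deposited FPKM per Ensembl gene with Cufflinks (version 2.1.1), with non-coding regions masked and with corrections for reads that map to several places and for fragment bias. The table holds no counts, and depth is therefore unknown. No interval could be given for an FPKM. Of its 23362 entries, 166 repeat a symbol, of which the entry highest in mean FPKM was kept. The 37 genes and all lists were chosen with earlier results of these data known.

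Genes had to reach an FPKM of 1 in any library. Their log2 ratios, after adding 1 to each FPKM, came from Python 3.11.15 with pandas 2.3.3 and numpy 2.4.6. Calls were made at 1.5-fold without a test, and the steps were tested on simulated data. Of the 37 genes, all that passed the filter are given by level or ratio, with all 4 values for those called and for the 8 of highest mean FPKM. Of other pathway genes, those called are named, up to 3 per list by size of ratio, and any further gene was picked after its values were seen. Single values of 1 pathway gene are not reported here. Shared bases were computed from the deposited gene spans. In the GENCODE annotation on GRCh37, all 37 identifiers overlapped these spans on the same strand. Some ends differed, as for ITGB3 (−30549 bases) and ITGB6 (−71575 bases). The alternatives tried were pseudocounts of 0.1 and 5, calls at 2-fold, no filter, a minimum FPKM of 5, rescaling by the upper quartile or the median of ratios, summed entries of a symbol, an average of 3NQ and the ΔTM-labelled library as control and, chosen after seeing the data, a filter without the ΔTM-labelled library. Figures were drawn with matplotlib 3.10.9.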

Additional observations from a re-analysis of the deposited data

Results flagged for a closer look

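TLN2, which codes for a talin that links integrins to actin, differed from Luc in opposite directions in 3NQ and in the ΔTM-labelled library, in which KIAA1324 was listed at an FPKM of 0. Its log2 ratio to Luc was −0.69 for 3NQ and 1.64 for the ΔTM-labelled library, with 35.3 FPKM for Luc, 21.5 for 3NQ and 112 for the ΔTM-labelled library. Both ratios share the Luc library and each group is 1 library, so that the difference between them was not tested.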

How the results depend on the processing

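Of 72 counts of adhesion genes called under an alternative, 56 were within 1.5 times the reported count. At 2-fold, 2 genes were higher and 0 lower in WT against Luc, 0 were lower in 3NQ, 0 higher and 0 lower in the ΔTM-labelled library, and 1 higher and 0 lower in WT against 3NQ. With a pseudocount of 5, 0 were lower in 3NQ, 0 higher and 0 lower in the ΔTM-labelled library, and 1 higher and 0 lower in WT against 3NQ. With a pseudocount of 0.1, 2 were lower in the ΔTM-labelled library, LAMA3 in addition to FN1. Rescaling by the upper quartile or the median of ratios left 0 lower in 3NQ. With the average of 3NQ and the ΔTM-labelled library as the control, 0 were lower in WT, the median ratio of the adhesion genes in WT was 0.13, and that of TLN2 turned to −0.67. The same median was −0.0048 with an FPKM of at least 5 and −0.0057 after upper-quartile rescaling, and 29 of 32 medians kept their sign and moved by less than 0.1. Of 728 ratios of single genes, 693 kept their direction and call. The cause of these shifts was not tested. No paired analysis was possible because each group held 1 library, and no library could be left out of a group. Unknown depth limits statements on LAMA2, CD44, CTGF and the 6 genes below the filter most.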
